A study of Mus musculus with 6 samples.

Results

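The solute carrier families Slc1, Slc6, Slc7, Slc36 and Slc38, with the heavy chains Slc3a1 and Slc3a2, hold most of the transporters that move amino acids across the membranes of mouse cells. Members were taken by gene symbol, and this choice was made with earlier results of these data known. Of the 24043 gene rows, 56 matched. They comprised 7 Slc1, 2 Slc3, 17 Slc6, 15 Slc7, 4 Slc36 and 11 Slc38 genes. RNA-seq libraries came from embryonic stem (ES) cells of the mouse, which are pluripotent cells of the early embryo. There were 3 libraries of wild-type cells and 3 of cells labelled Q-KO, described as lacking every G1 cyclin. All were cultured with leukaemia inhibitory factor and with CHIR99021 and PD184352, which inhibit GSK3 and MEK. Neither the alleles of the Q-KO cells nor the number of clones is given in the sources used here. The labels do not say that the libraries came from separate cultures, so the p-values measure the spread between these libraries, which may be technical.

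Amino acids cross the plasma membrane by several routes that differ in driving force and substrate. Sodium-driven carriers such as those of the Slc38 and Slc1 families concentrate glutamine, alanine and serine inside the cell, and exchangers of the Slc7 family trade these for leucine and other essential amino acids. Several Slc7 proteins are light chains that reach the surface only when bound to a heavy chain, either 4F2hc (Slc3a2) or rBAT (Slc3a1). Most Slc6 carriers move neurotransmitters or osmolytes such as taurine and creatine rather than amino acids for protein synthesis. Amino acids that enter in this way are sensed by the mTORC1 kinase, and their shortage sets off the GCN2 and ATF4 response. ES cells are known for a high demand for glutamine, leucine and threonine.

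The values were FPKM, that is fragments scaled to gene length and to the size of the library, so levels of different genes can be compared per length. The ES cell markers Pou5f1, Sox2 and Nanog were at 589 to 797, 159 to 189 and 392 to 597 FPKM in the 6 libraries. Zfp42 varied more, at 76.6, 78.9 and 363 FPKM in wild-type replicates 1 to 3 and at 177, 75.4 and 74.7 FPKM in Q-KO replicates 1 to 3. All 8 ES cell markers examined overlapped between groups (lowest limma adjusted p = 0.293). Of the G1 cyclin genes, Ccnd3, Ccnd1 and Ccne2 fell with the Q-KO label (limma adjusted p = 0.0101, 0.0124 and 0.0182), but Ccne1 was higher in each of them (65.3 to 87.3 against 37.5 to 55.9 FPKM, adjusted p = 0.113) and Ccnd2 was under 1 FPKM throughout. A gene-level value includes exons outside a deleted part, so these values do not show which alleles were deleted, and each direction reported here belongs to libraries that carry the Q-KO label. Wild-type replicate 3 stood apart: it carried Y-linked transcripts like the Q-KO libraries, which wild-type replicates 1 and 2 lacked, and its genes on chromosomes 8 and 11 were higher by medians of 0.25 and 0.25 on the log2 scale than in the other wild-type libraries, against -0.12 to 0.03 on the other chromosomes. Of 9 trophectoderm markers 5 were tested and 2 (Eomes and Tfap2c) rose, where 3.04% of all genes tested rose. The untested Cdx2 and Gata3 were also higher in every Q-KO library, at 0.393 to 0.805 and 0.242 to 0.321 FPKM against 0.0178 to 0.0489 and 0.00764 to 0.204 FPKM. The other markers overlapped between groups. Krt7, Krt8 and Krt18 had log2 changes of 0.23, -1.17 and -0.52 (limma adjusted p = 0.837, 0.437 and 0.453). The untested Hand1 averaged 0.122 FPKM in wild-type and 0.0783 FPKM among Q-KO libraries, and the untested Elf5 0.0498 and 0.0883 FPKM. The sum of the 9 was 27.4, 25.5 and 62.6 FPKM in wild-type replicates 1 to 3, with Krt8 at 30.7 FPKM in the last, and 43.3 to 56.9 FPKM among Q-KO libraries. Of 7 primitive endoderm markers 0 were tested. Dab2 was higher in every Q-KO library (0.294 to 1.24 against 0.0534 to 0.123 FPKM). Of 6 neural markers 2 were tested and 0 passed. Nes (limma adjusted p = 0.105) and the untested Map2 were lower in every Q-KO library, and the untested Pax6 was higher. The remaining endoderm and neural markers overlapped between groups. Of 10 fibroblast feeder markers 5 reached 1 FPKM in any library. Their sum over all 10 was 7.81 FPKM in Q-KO replicate 1 and 1.87 to 3.56 FPKM in the other libraries. Dcn was listed at 0 in 4 libraries, wild-type replicates 1 to 3 and Q-KO replicate 2. The sum hid markers that differed by group. Thy1 was lower in every Q-KO library (0.819 to 1.36 against 1.42 to 2.75 FPKM, limma adjusted p = 0.196). The untested Pdgfrb was higher in every Q-KO library (0.931 to 1.28 against 0.133 to 0.755 FPKM). Neither was highest in Q-KO replicate 1. The part of these differences in the results below was not tested, and in bulk RNA fewer cells of a type and less RNA per cell cannot be told apart.

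Expression was uneven among the transporters. Of the 56 members, 24 averaged 1 FPKM or more across the 6 libraries and were tested, 32 averaged less and were not, and 13 of the 24 reached 10 FPKM. The heavy chain gene Slc3a2 (mean of all libraries 78.0 FPKM) and Slc38a4 (76.9 FPKM) were the most abundant, and Slc38a4 was the higher of them in every Q-KO library and in wild-type replicate 2. Slc7a3 (49.5 FPKM), Slc7a5 (47.3 FPKM) and Slc6a8 (34.9 FPKM) followed, and these 5 genes held 55.3% of the summed FPKM of all members. Neighbours in this order, such as Slc7a3 and Slc7a5, overlapped in their library values. The sum over the members was 508 ± 17.6 FPKM in wild-type and 529 ± 41.9 FPKM among Q-KO libraries (mean ± SD over n = 3 libraries, which holds for later means too; exact permutation test, two-sided p = 0.5). With 3 libraries a group the smallest p that this test allows is 0.1.

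**Figure D1:**
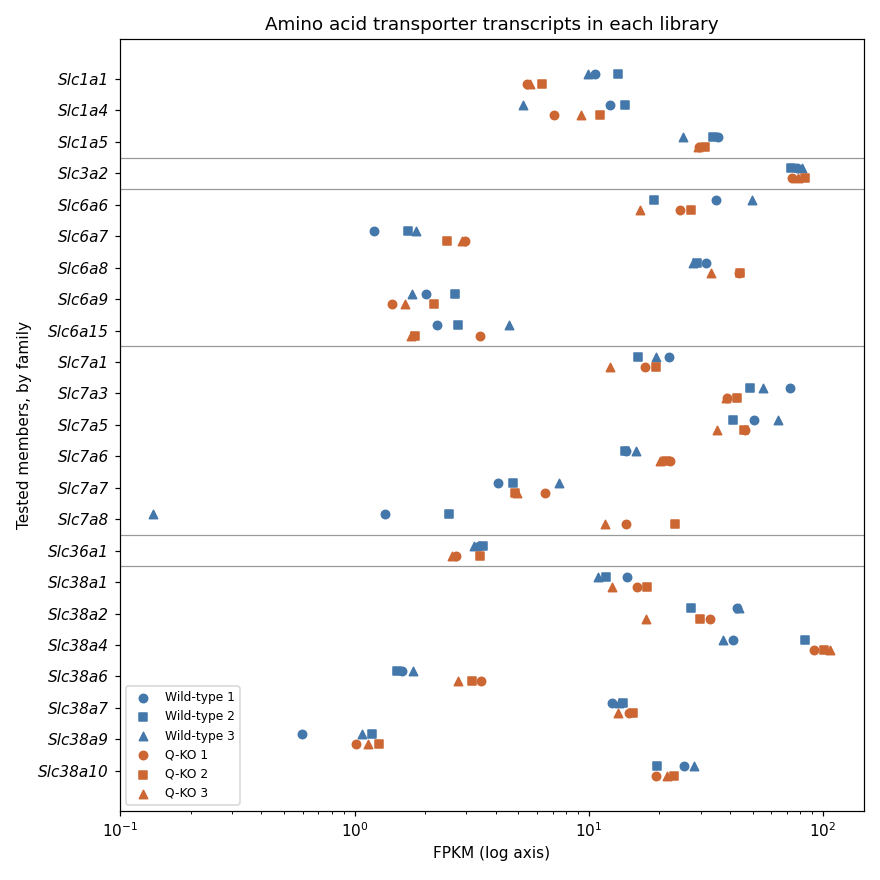
FPKM (log axis) of tested members in each library, by family, with wild-type libraries in blue and Q-KO libraries in orange. Slc7a8 separates the groups most widely, and for it wild-type replicate 3 lies far below all other libraries (0.138 FPKM).

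Of the 24 tested members, 1 rose and 1 fell in the Q-KO libraries (limma on log2(FPKM + 1), two-sided, Benjamini-Hochberg adjusted p under 0.05 over all 11573 genes tested). Over all genes tested 4.06% passed this threshold, 3.04% as rises and 1.02% as falls. The gene that rose was Slc7a8 and the one that fell was Slc1a1. The library values of the groups did not overlap for 8 of the 24, 6 higher and 2 lower, where 27.7% of all genes tested had groups that did not overlap (18.2% higher and 9.44% lower). The log2 change was above 0 for 12 members and below 0 for 12, with a median of -0.01, beside a median of 0.07 over all genes tested. Of the 470 calls over all genes 74.9% were rises, a share that was 54% after quantile normalization, 61.8% after median-of-ratios scaling and 57.2% once a dependence on gene length was taken out, and the members above 0 were then 9, 10 and 10 of 24. An unadjusted p under 0.05 was found for 8 of the 24, both called genes included, and for 21.5% of all genes tested.

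**Figure D2:**
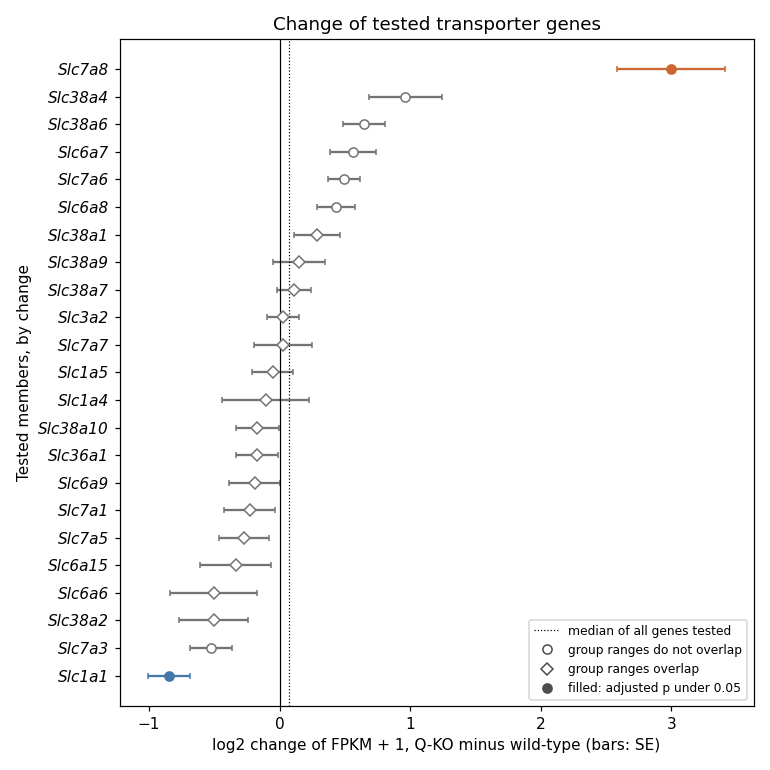
log2 change of FPKM + 1, Q-KO minus wild-type, with its SE (bars) for tested members, ordered by size; filled points passed the threshold, circles mark members whose groups did not overlap and diamonds those whose groups did, and the dotted line is the median of all genes tested. Slc7a8 (3.00) lies far above the rest, which range from -0.85 for Slc1a1 to 0.96 for Slc38a4.

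Because the results turn on Slc7a8 and Slc1a1, the 250 bases before their annotated starts are shown, with each CG dinucleotide in capitals. The sequences are RefSeq's (GRCm38.p6, read 5′ to 3′ on the gene's strand), a newer build than the mm9 named by the submitters. The window of Slc7a8, which encodes the light chain LAT2, is chr14:54781887-54782136 on the minus strand. The window of Slc1a1, which encodes the glutamate transporter EAAT3, is chr19:28834885-28835134 on the plus strand.
Slc7a8: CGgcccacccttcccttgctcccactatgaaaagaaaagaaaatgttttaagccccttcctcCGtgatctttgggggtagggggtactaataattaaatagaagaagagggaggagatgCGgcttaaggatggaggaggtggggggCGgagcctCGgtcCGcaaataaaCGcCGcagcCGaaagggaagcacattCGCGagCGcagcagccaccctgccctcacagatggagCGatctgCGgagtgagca
Slc1a1: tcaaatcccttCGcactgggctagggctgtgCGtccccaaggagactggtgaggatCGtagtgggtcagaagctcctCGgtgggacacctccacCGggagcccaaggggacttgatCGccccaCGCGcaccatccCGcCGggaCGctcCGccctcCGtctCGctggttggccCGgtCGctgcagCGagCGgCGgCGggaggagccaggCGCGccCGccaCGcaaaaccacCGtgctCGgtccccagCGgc
The Slc7a8 window held 14 CG dinucleotides and the Slc1a1 window 27, where 70.6% and 91.4% of all 32851 windows held fewer. Both windows were searched on both strands for the E-box CACGTG, the E2F-like GGCGGGAA and the ATF4-like TGATGNAA, and held none of these letters. Of all windows 6.02%, 1.86% and 3.45% held them. Among the 15 tested members with a window in that table, the E-box letters were in Slc36a1 and Slc38a7, the ATF4-like letters in Slc7a7, and the E2F-like letters in none.

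Among the light chains of 4F2hc, Slc7a8 rose and the others did not pass the threshold, and neither did the heavy chain. Here and below library values are given in the order of replicates 1, 2 and 3. Slc3a2 was at 77.6, 72.7 and 81.7 FPKM in the wild type and at 74.1, 84.1 and 78.0 FPKM among Q-KO libraries. The groups overlapped, and its log2 change was 0.02 (SE 0.12, limma adjusted p = 0.93), with a sign that turned under both scalings and after a length trend was removed. Slc7a8, whose product LAT2 exchanges large and small neutral amino acids, was at 1.35, 2.53 and 0.138 FPKM in the wild type and at 14.4, 23.4 and 11.8 FPKM among Q-KO libraries. All Q-KO libraries were above all wild-type libraries, and the means of 1.34 ± 1.20 and 16.5 ± 6.12 FPKM stood in a ratio of 12.3. Its log2 change was 3.00 (SE 0.41, limma adjusted p = 0.0116), and its size equalled or exceeded that of 99.8% of genes tested. Within the wild type the highest library was 18.3-fold above the lowest, wild-type replicate 3. Without wild-type replicate 3 the log2 change was 2.55 (adjusted p = 0.00499), and without Q-KO replicate 1, the library with more feeder transcripts, 3.06 (adjusted p = 0.0462). Without wild-type replicate 1, Q-KO replicate 2 or Q-KO replicate 3 the call was lost (adjusted p = 0.0512, 0.0846 and 0.0543) with log2 changes of 3.07, 2.73 and 3.20.

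The other light chains were the leucine exchanger gene Slc7a5 and the genes Slc7a6 and Slc7a7, whose products export cationic in exchange for neutral amino acids. Slc7a6 was at 14.4, 14.3 and 15.9 FPKM in the wild type and at 22.2, 21.4 and 20.2 FPKM among Q-KO libraries. Its groups did not overlap and its libraries were close within each group, but the log2 change of 0.49 (SE 0.12) missed the threshold (limma adjusted p = 0.0712). Slc7a5, which encodes LAT1, was the most abundant light chain in every library, at 50.9, 41.2 and 64.2 FPKM in the wild type and at 46.3, 45.8 and 35.4 FPKM among Q-KO libraries (a log2 change of -0.27, SE 0.19, adjusted p = 0.448). Slc7a5 and Slc7a6 lie on chromosome 8, and both were highest among wild-type libraries in wild-type replicate 3, unlike Slc38a7 on the same chromosome. Slc7a7 was at 5.42 ± 1.78 and 5.42 ± 0.930 FPKM. Slc7a10 and Slc7a11, the cystine and glutamate exchanger xCT, were at 0 to 0.133 FPKM.

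Summed over the 6 light chains, the level was 73.8 ± 12.8 FPKM in wild-type and 85.8 ± 12.0 FPKM among Q-KO libraries (exact permutation test, two-sided p = 0.2). Slc7a8 made up 1.91, 4.03 and 0.157% of this sum in the wild-type libraries and 16.1, 24.5 and 16.3% in the Q-KO libraries. Slc7a5 made up 71.9, 65.6 and 73.1% in the wild-type libraries and 51.7, 48.0 and 48.9% in the Q-KO libraries. Neither share overlapped between the groups (exact permutation test, two-sided p = 0.1 for each, the smallest possible). The shares are parts of the same sum, so a higher level of Slc7a8 or of Slc7a6 lowers the share of Slc7a5, and the results are not independent. The FPKM of Slc7a5 itself overlapped between the groups. The light chain sum stood at 0.863 to 1.07 times the level of Slc3a2 in wild-type and at 0.928 to 1.21 times in Q-KO libraries, and these ranges overlapped.

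**Figure D3:**
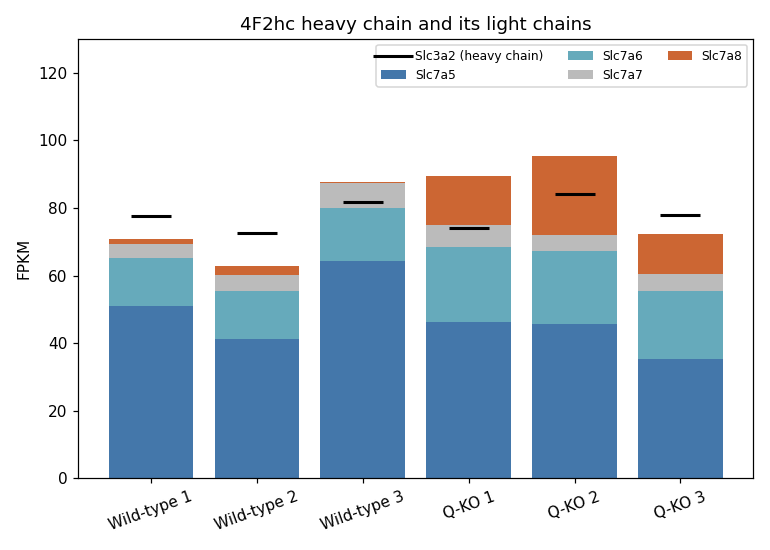
FPKM of the 4 expressed light chains of 4F2hc stacked for each library, with the heavy chain Slc3a2 as a black bar. The orange Slc7a8 block is 0.138 to 2.53 FPKM in wild-type and 11.8 to 23.4 FPKM among Q-KO libraries, while Slc3a2 stays between 72.7 and 84.1 FPKM.

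Cationic amino acid transporters of the Slc7 family act without a heavy chain and carry arginine, lysine and ornithine. Slc7a3, an X-linked gene, had the highest mean of its family over the 6 libraries, although Slc7a5 was above it in wild-type replicate 3 and in Q-KO replicates 1 and 2. It was at 72.1, 49.0 and 55.5 FPKM in the wild type and at 39.0, 42.8 and 38.6 FPKM among Q-KO libraries. Every Q-KO library was below every wild-type library, but the log2 change of -0.53 (SE 0.16) did not pass (limma adjusted p = 0.117). Slc7a1, which encodes the widely expressed CAT1, was at 19.2 ± 2.94 and 16.4 ± 3.71 FPKM (adjusted p = 0.54), and Slc7a2 was below the filter at 0.101 to 1.59 FPKM. The sum of these 3 genes was 66.8 to 94.5 FPKM in wild-type and 51.0 to 62.5 FPKM among Q-KO libraries (exact permutation test, two-sided p = 0.1). Slc7a3 made up most of it, 73.4 to 76.2% in wild-type and 68.2 to 75.6% in Q-KO libraries. Slc7a1 and Slc7a2 each overlapped between the groups.

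The Slc1 family held the member that fell. Slc1a1 carries glutamate, aspartate and cysteine, and was at 10.6, 13.3 and 9.92 FPKM in the wild type and at 5.43, 6.31 and 5.59 FPKM among Q-KO libraries. The groups did not overlap, and the Q-KO mean of 5.78 ± 0.472 FPKM was 0.513 times the wild-type mean of 11.3 ± 1.78 FPKM. Its log2 change was -0.85 (SE 0.16, limma adjusted p = 0.0283). This call was lost without wild-type replicate 1 or 2 or any 1 of the Q-KO libraries (adjusted p = 0.0577 to 0.133) and was kept without wild-type replicate 3 (adjusted p = 0.026), while the log2 change stayed between -0.93 and -0.73. It was also lost once Y-linked transcripts entered as a term, which sets the Q-KO libraries against wild-type replicate 3 alone (-0.69, adjusted p = 0.106). In GENCODE M21 (GRCm38) exons of Slc1a1 share 1216 bases with the opposite-strand gene 4430402I18Rik, which was listed at 0.0790 to 0.263 FPKM, so reads of both could not be told apart without strand. The same holds for Slc6a9 (1429 bases shared with Ccdc24), Slc38a10 (367 bases shared with Gm11769), Slc7a7 (232 bases shared with Oxa1l) and, below the filter, Slc3a1 (601 bases shared with Prepl) and Slc7a10 (237 bases shared with Lrp3).

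The other expressed Slc1 genes encode exchangers of small neutral amino acids. Slc1a5, which encodes the glutamine carrier ASCT2, was the most abundant of the family at 35.7, 34.0 and 25.2 FPKM in the wild type and at 29.7, 31.5 and 29.3 FPKM among Q-KO libraries (a log2 change of -0.05, SE 0.16, limma adjusted p = 0.875). Slc1a4, which encodes ASCT1, was at 12.3, 14.3 and 5.22 FPKM in the wild type and at 7.10, 11.2 and 9.29 FPKM among Q-KO libraries (adjusted p = 0.886). For both genes wild-type replicate 3 was the lowest library of its group. The glutamate transporter genes Slc1a2, Slc1a3, Slc1a6 and Slc1a7, known from glia and neurons, were below the filter at 0.00108 to 0.597 FPKM.

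Summed over the Slc38 family, whose best known members couple uptake to sodium, the Q-KO libraries were at 177 to 193 FPKM and the wild-type libraries at 137 to 160 FPKM (exact permutation test, two-sided p = 0.1). This difference rested on Slc38a4: without it, a sum added after seeing the data, the family was at 76.8 to 99.6 FPKM in the wild type and at 70.0 to 91.7 FPKM among Q-KO libraries, which overlap (exact permutation test, two-sided p = 0.5). The sums of the Slc1, Slc3, Slc6, Slc7 and Slc36 families had p = 0.4, 0.7, 1, 0.5 and 0.3 by the same exact permutation test, unadjusted over the families. Slc38a4 is a paternally expressed imprinted gene whose product SNAT4 carries neutral amino acids, and it was at 41.3, 83.7 and 37.3 FPKM in the wild type and at 91.4, 101 and 107 FPKM among Q-KO libraries. The groups did not overlap, although wild-type replicate 2 came close to the Q-KO libraries, and the log2 change of 0.96 (SE 0.28) did not pass (limma adjusted p = 0.103). Without wild-type replicate 2 it was 1.32 (adjusted p = 0.0108). With Y-linked transcripts as a term, which leaves wild-type replicate 3 alone as the control, it was 1.39. In the other 14 of 16 alternative settings Slc38a4 did not pass, with adjusted p = 0.162 to 0.317 in the other leave-one-out fits. Slc38a2, which encodes the starvation-inducible SNAT2, was at 43.0, 27.3 and 43.8 FPKM in the wild type and at 32.9, 29.9 and 17.6 FPKM among Q-KO libraries (a log2 change of -0.51, SE 0.27, adjusted p = 0.32). Slc38a1, which encodes the glutamine carrier SNAT1, was at 12.4 ± 1.92 and 15.4 ± 2.66 FPKM (adjusted p = 0.388). The sum of Slc38a1, Slc38a2 and Slc38a4, which form amino acid transport system A, was 105 ± 16.2 FPKM in wild-type and 142 ± 5.96 FPKM among Q-KO libraries, without overlap (exact permutation test, two-sided p = 0.1). It too rested on Slc38a4, since Slc38a1 and Slc38a2 alone summed to 50.5 ± 9.92 and 42.2 ± 10.5 FPKM (exact permutation test, two-sided p = 0.4), and the grouping was chosen after values were seen.

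Slc38a6 was low but separated the groups, at 1.60, 1.52 and 1.78 FPKM in the wild type and at 3.45, 3.16 and 2.77 FPKM among Q-KO libraries. Its log2 change of 0.65 (SE 0.16) missed the threshold (limma adjusted p = 0.0711), but passed it without an intensity trend (0.0461) and after a length trend was removed (0.0497). Slc38a7 and Slc38a9 encode lysosomal carriers, of glutamine and of arginine, and the latter reports arginine to mTORC1. They were at 13.4 ± 0.705 and 14.6 ± 1.08 FPKM, and at 0.953 ± 0.315 and 1.14 ± 0.129 FPKM, with overlapping groups (adjusted p = 0.658 and 0.717). Slc38a10 was at 24.3 ± 4.34 and 21.3 ± 1.86 FPKM (adjusted p = 0.589). The system N genes Slc38a3 and Slc38a5, with Slc38a8 and Slc38a11, were below the filter at 0 to 1.38 FPKM.

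The products of the Slc36 family carry small amino acids together with protons. Slc36a1 was at 3.40, 3.54 and 3.25 FPKM in the wild type and at 2.71, 3.44 and 2.61 FPKM among Q-KO libraries. Q-KO replicate 2 fell within the wild-type range, and the log2 change was -0.17 (SE 0.16, limma adjusted p = 0.583). Slc36a2, Slc36a3 and Slc36a4 were below the filter at 0.0367 to 0.359 FPKM. Slc36a1, Slc1a4 and Slc38a10 lie on chromosome 11, and of these Slc38a10 alone was highest among wild-type libraries in wild-type replicate 3.

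The Slc6 family was expressed mainly through 2 carriers of osmolytes and metabolites. Slc6a8, the creatine transporter gene on the X chromosome, was at 31.7, 28.9 and 27.8 FPKM in the wild type and at 43.6, 44.2 and 33.3 FPKM among Q-KO libraries. The groups did not overlap, and its log2 change was 0.43 (SE 0.15, limma adjusted p = 0.149). Slc6a6, the taurine transporter gene, was at 34.8, 19.0 and 49.7 FPKM in the wild type and at 24.5, 27.3 and 16.6 FPKM among Q-KO libraries, with wide overlap (-0.51, SE 0.33, adjusted p = 0.422). Slc6a7, known as a proline transporter of the brain, was at 1.21, 1.68 and 1.84 FPKM in the wild type and at 2.97, 2.49 and 2.88 FPKM among Q-KO libraries (0.56, SE 0.18, adjusted p = 0.125), and its groups did not overlap.

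The glycine transporter gene Slc6a9 (2.15 ± 0.486 and 1.76 ± 0.386 FPKM, adjusted p = 0.614) and Slc6a15 (3.20 ± 1.22 and 2.33 ± 0.949 FPKM, adjusted p = 0.517), which carries branched-chain amino acids and proline, overlapped between groups. Other Slc6 members, Slc6a2, Slc6a3, Slc6a4, Slc6a5, Slc6a11, Slc6a12, Slc6a13, Slc6a14, Slc6a17, Slc6a18 and Slc6a19, were below the filter at 0 to 0.232 FPKM, and Slc6a18 was listed at 0 in every library.

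Members below the filter were not part of the test. Of these 32, 26 stayed under 0.5 FPKM in every library, and Slc6a18 and Slc7a12 were listed at 0 in all. Of the 30 above 0 in a library, the Q-KO libraries were all higher in 8 and all lower in 2 (Slc1a6 and Slc36a2). Of all genes below the filter with any value above 0, 22.4% had groups that did not overlap, a share not split by direction. Some of the 8 separated near 0, such as Slc6a2 (0.00731 to 0.00794 against 0 to 0.00218 FPKM) and Slc6a14 (0.00706 to 0.0650 against 0 FPKM). The highest of these 10 was Slc7a9, the light chain that pairs with rBAT in kidney, at 0.239, 0.296 and 0.634 FPKM in the wild type and at 0.887, 1.04 and 1.67 FPKM among Q-KO libraries. Its partner Slc3a1 was at 0.0110 to 0.0301 FPKM in the wild type and at 0.0380 to 0.0767 FPKM among Q-KO libraries. The opposite-strand gene Prepl, which shares exonic bases with Slc3a1, was also higher in every Q-KO library, at 15.3 to 16.5 against 8.73 to 11.6 FPKM, and its part in the values of Slc3a1 was not tested. In a fit with no filter 0 of the 30 members above 0 that lie below the filter passed limma's threshold, 7 had an unadjusted p under 0.05, and Slc7a9 had an adjusted p of 0.12. The other Slc7 members below the filter, Slc7a4, Slc7a13, Slc7a14 and Slc7a15, were at 0 to 0.536 FPKM.

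In related gene lists the counts of calls are set beside the 3.04% of all genes tested that rose and the 1.02% that fell. Among other amino acid transporters and accessory subunits, 1 of 17 tested genes rose and 0 fell, with a median log2 change of 0.19. This was Slc43a2, which encodes the large neutral amino acid uniporter LAT4, at 1.03, 1.01 and 1.83 FPKM in the wild type and at 3.27, 5.07 and 3.65 FPKM among Q-KO libraries (1.13, SE 0.22, limma adjusted p = 0.0329). All Q-KO libraries were higher, but the call was lost in each leave-one-out fit other than that without wild-type replicate 3 (adjusted p = 0.0675 to 0.171), with no filter (0.0723), with the replicate number as a block (0.0574) and with Y-linked transcripts as a term (0.108). Slc6a20a and Slc6a20b, which the symbol rule does not match, were at 0 to 0.106 FPKM.

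Among genes by which mTORC1 senses amino acids, 1 of 31 rose and 1 fell, beside 3.04% and 1.02% of all genes tested, with a median of 0.09. Rragd, a Rag GTPase, was at 7.07, 7.54 and 8.49 FPKM in the wild type and at 18.4, 16.0 and 14.5 FPKM among Q-KO libraries (0.99, SE 0.15, limma adjusted p = 0.0147). Gatsl3, which encodes the arginine sensor CASTOR1, was at 27.7, 25.5 and 30.8 FPKM in the wild type and at 16.8, 17.6 and 15.5 FPKM among Q-KO libraries (-0.71, SE 0.13, adjusted p = 0.0271). For both genes the groups did not overlap. The call of Rragd was lost without wild-type replicate 1, Q-KO replicate 1 or Q-KO replicate 2 (adjusted p = 0.0678, 0.0572 and 0.107), and that of Gatsl3 also without Q-KO replicate 3 (0.0833 to 0.137 over these 4 libraries) and with the replicate number as a block (0.0697).

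In the GCN2 and ATF4 response to amino acid shortage, 1 of 18 tested genes rose and 0 fell, beside the same 3.04% and 1.02%, with a median of 0.11. This was Atf5, a transcription factor gene, at 14.5, 11.2 and 11.1 FPKM in the wild type and at 18.4, 28.0 and 25.4 FPKM among Q-KO libraries (0.90, SE 0.19, limma adjusted p = 0.0425). Its call was lost in 10 of 16 alternative settings, both scalings among them. An unadjusted limma p under 0.05 was found for 3 of the 18 (Atf5, Ddit3 and Ddit4), beside 21.5% of all genes tested. Ddit3 had the largest log2 change of the list (1.12, adjusted p = 0.141). It was at 19.6 ± 11.4 and 41.3 ± 12.9 FPKM, with overlapping groups. Ddit4 and Nupr1 had log2 changes of 0.57 and -0.65 (adjusted p = 0.185 and 0.242). Asns, the asparagine synthetase gene and a known ATF4 target, was at 487 ± 20.8 and 531 ± 65.8 FPKM (adjusted p = 0.685). Atf4 was at 221 ± 13.8 and 215 ± 28.4 FPKM (adjusted p = 0.884).

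The cytosolic aminoacyl-tRNA synthetases load amino acids on tRNA for translation. None of the 20 tested genes passed limma's threshold. An unadjusted p under 0.05 was found for 8 of the 20, beside 21.5% of all genes tested. A log2 change below 0 was found for 17, with a median of -0.24 beside 0.07 for all genes tested. The groups did not overlap for 11 that were lower and 1 that was higher (Wars), against 9.44% and 18.2% of all genes tested. Their summed level was 1908, 1789 and 1852 FPKM in wild-type and 1545, 1600 and 1614 FPKM among Q-KO libraries, and the groups did not overlap (exact permutation test, two-sided p = 0.1). The most abundant, Nars (167 ± 8.82 and 131 ± 9.97 FPKM, adjusted p = 0.155) and Gars (166 ± 22.8 and 160 ± 7.85 FPKM, adjusted p = 0.895), had no call. Between 15 and 18 of the 20 were below 0 under every alternative run, and 1 passed as lower after a length trend was removed.

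**Figure D4:**
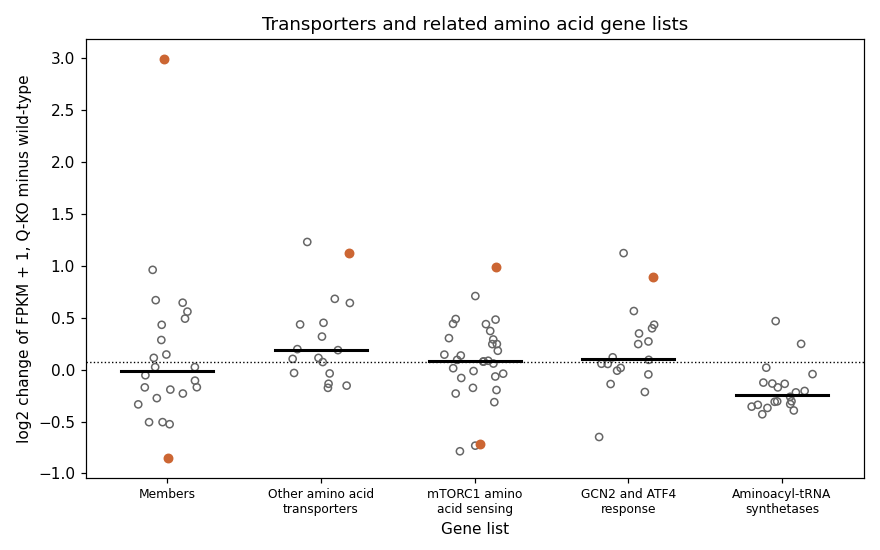
log2 change of FPKM + 1, Q-KO minus wild-type, of each tested gene in the transporter families and in 4 related lists; orange points passed the threshold, black lines are list medians and the dotted line is the median of all genes tested. The transporter median (-0.01) and the medians of 3 related lists (0.09 to 0.19) lie near the dotted line at 0.07, and that of the synthetases (-0.24) lies below it.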

How the data were processed

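RNA-seq was done on 3 wild-type and 3 Q-KO libraries, grouped and numbered by their titles. The authors deposited FPKM values in 1 table, genes by symbol in rows and libraries in columns. The tools STAR 2.5, Cufflinks, bcl2fastq 2.16 and CASAVA and the build mm9 are named, without role or order, per the submitters' processing notes; the annotation and strand setting are not stated. After 1 stray header row was dropped 24043 gene rows remained, and 11573 had a mean of at least 1 FPKM. The filter also keeps genes that only 1 group expresses. The number of reads per library is unknown and no counting intervals could be given; steps between low values put relative depth at 1.1 to 1.22 for 5 libraries, with wild-type replicate 1 as the reference.

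log2(FPKM + 1) was compared with limma 3.58.1 in R 4.3.3 (intensity trend, two-sided, Benjamini-Hochberg, threshold 0.05), a script tested on simulated data. The log2 scale with this pseudocount understates changes of low genes. Summed levels and shares were compared by exact permutation over libraries; their groupings by role were chosen after values were seen. The text gives library values for called members, members with separate groups and the most abundant of each family. It also gives them for up to 4 called members of each related list or, with no call, its most abundant. Asns, Atf4, Ddit3, Ddit4, Nupr1, Nars, Wars, Slc7a5, Slc38a2, Slc6a6, Slc7a9 and Slc1a4 were singled out after their values were seen. So were the markers Thy1, Pdgfrb, Dab2, Pax6, Nes and Map2. Members and lists were chosen with earlier results of these data known. Alternatives were another pseudocount, other filters, 2 scalings, no intensity trend, a robust fit, a replicate block, a term for Y-linked transcripts and leaving out each library; removal of a length trend and sums without Slc38a4 were chosen after seeing the data. Chromosomes come from RefSeq and GENCODE (GRCm38) and gene lengths from GENCODE M21, which had 95.3% of the genes tested. The values of 1 tested member are not reported here, in text or in plots by name, but it is included in counts and sums.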

Additional observations from a re-analysis of the deposited data

How the results depend on the processing

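The 2 transporter calls depended on single libraries. With each library left out in turn, the count of all genes past the threshold was 28 to 566 in place of 470, that of transporter rises 0 to 2 and that of falls 0 to 1 in place of 1 each. Leaving out wild-type replicate 1 gave 94 genes in all, and leaving out Q-KO replicate 1, 2 or 3 gave 187, 28 or 85. With a mean of at least 5 FPKM 266 genes passed, out of fewer tested, and 894 once Y-linked transcripts entered as a term. Transporter rises numbered 2 with no filter (Slc7a6 joined, adjusted p = 0.0497), 2 with no intensity trend or after removal of a length trend (Slc38a6 joined), and 3 with Y-linked transcripts as a term (Slc38a4 among them), where 0 fell. The cause was not tested. The counts of transporter calls were 1 higher and 1 lower with a pseudocount of 0.1, both scalings, a robust fit, and a replicate block. With the replicate block 333 genes passed. Deviations of same-numbered libraries had r of -0.03, 0.01 and 0.02 across genes, and those of differently numbered libraries -0.13 to 0.17. With 3 libraries a group, these values do not settle whether the numbers pair the libraries. Signs turned for 5 uncalled members. With the term for Y-linked transcripts Slc1a4 was at 0.69, Slc1a5 at 0.25, Slc3a2 at -0.055 and Slc7a7 at -0.41. Median-of-ratios scaling gave -0.062 for Slc3a2 and -0.049 for Slc7a7, quantile normalization -0.017, -0.078 and, for Slc38a9, -0.10, and removal of a length trend -0.056 and -0.067. Over the leave-one-out fits the log2 change ran from -0.50 to 0.15 for Slc1a4, -0.20 to 0.037 for Slc1a5, -0.024 to 0.067 for Slc3a2 and -0.13 to 0.24 for Slc7a7. Depth limits the members under 1 FPKM, where a few fragments set the value.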
